A study of Mus musculus with 6 samples.

Results

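The genes examined here encode the last stages of mitochondrial respiration: cytochrome bc1 (complex III), cytochrome c, cytochrome c oxidase (complex IV) and ATP synthase. They were chosen by name, as protein-coding genes whose mouse symbol begins with Uqcr, Cox4 to Cox8, Atp5, mt-Co, mt-Atp or mt-Cyt, together with Cyc1 and Cycs, with at least 30 reads summed over the libraries. Of the 35275 genes of the deposited count table, 49 met this rule. Complex III had 10 of them, complex IV 20, ATP synthase 18 and cytochrome c 1. Nuclear DNA carries 44 of the 49 genes and mitochondrial DNA carries 5. Cox8c, listed at 0 in every library, and mt-Atp8, with 8 reads in all, had too few reads to be included.

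Electrons reach complex III from complexes I and II, pass to the small soluble protein cytochrome c, and are handed by complex IV to oxygen. Complexes III and IV pump protons on the way, and ATP synthase lets the protons flow back through its membrane ring to drive a rotor inside the catalytic F1 head. The catalytic centres of complexes III and IV lie in a few large subunits, some of them made from mitochondrial DNA, whereas most accessory subunits are short proteins made from nuclear DNA, so both genomes must contribute to 1 enzyme. Spinal cord neurons and astrocytes both depend on this pathway, and neurons do so strongly.

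RNA came from whole spinal cord of 3 Sox2 cKO and 3 Ctrl C57BL/6 mice, as poly(A) RNA. Sox2 cKO mice were mGfap-Cre:Sox2fl/fl, in which Cre driven by a mouse Gfap promoter fragment removes floxed Sox2 from most astrocytes, a model in which the other cells of the cord are not targeted. The labels give Ctrl as mGfap-Cre:Sox2+/+, the design text gives them as carrying either allele alone, and the study's methods describe floxed littermates without Cre. Age is 80 days in the protocol and 90 days in the sample labels. The study's methods describe each group as 2 females and 1 male, and which column is which sex is not given. Columns of the count table carry numbers only, of which those ending in 2, 4 or 6 were taken as Ctrl and the odd ones (1, 3, 5) as Sox2 cKO. Values below are given in that order, as CPM, the counts scaled by edgeR to a common library size (TMM) unless another unit is named.

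Libraries held between 21507911 and 28392184 counts. Sox2 was at 19.9, 14.8 and 29.5 CPM in Ctrl and at 3.16, 2.69 and 2.98 CPM in Sox2 cKO, so that the groups were well apart in the deleted gene. Its log2 fold change was -2.86 ± 0.24 (SE, adjusted p = 0.00096, edgeR). Ctrl library 2 stood apart from the other Ctrl libraries. Over all genes, chi-square divided by its degrees of freedom was 25.0 and 29.2 when it was set against Ctrl libraries 4 and 6, and 28.0, 14.7 and 10.8 against Sox2 cKO libraries 1, 3 and 5, so that it was nearer to 2 of the 3 Sox2 cKO libraries than to its own group. Ctrl libraries 4 and 6 differed from each other by 9.98. Astrocyte markers moved with the groups, as 5 of 10 fell and 1, S100b, rose, and their summed level ranged from 8314 to 10143 CPM in Ctrl and from 6357 to 6600.3 CPM in Sox2 cKO. The 10 neuronal markers summed to 13269 to 13982 CPM in Ctrl and to 12558 to 12937 CPM in Sox2 cKO, with 1 gene called higher and 2 lower. The 8 oligodendrocyte markers overlapped, at 31991 to 35827 CPM and 32246 to 34816 CPM, with 0 genes called in edgeR. Among all genes tested, 12.2% were called higher and 12.4% lower. With a correction for gene length, described below, 2 astrocyte, 1 neuronal and 2 oligodendrocyte markers were called lower. In the same order 0, 1 and 0 were called higher, where 6.08% of all genes were called higher and 6.99% lower. No marker of these 3 lists was at 0. In bulk tissue, fewer cells of a type and less RNA per cell cannot be told apart, and what part cell composition had in the results below was not tested.

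Most nuclear genes of these complexes were higher in Sox2 cKO spinal cord, and no mitochondrial gene of the same complexes passed the test without a correction for gene length. Of the 43 nuclear members that passed the filter on low counts, 33 rose (adjusted p below 0.05 in edgeR's quasi-likelihood test over 16137 genes), 10 did not pass the test and 0 fell. Among all genes tested, 12.2% rose and 12.4% fell. The count of 33 was 17 with a correction for gene length (6.08% of all genes), and edgeR called 0 without Ctrl library 4 (0.0794% of all genes) or without Sox2 cKO library 1 (0.0182%). In these smaller fits 34 and 37 members had an unadjusted p below 0.05, and DESeq2 called 30 (6.24% of all genes) and 29 (7.34%). The median log2 fold change of the nuclear members was 0.58, beside 0.02 for all genes tested. None of the 5 mitochondrial members passed the test in edgeR or in DESeq2, none had an unadjusted p below 0.05 in edgeR, and their log2 fold changes lay between -0.04 and 0.11. With the length correction all 5 were below 0 (median -0.35) and mt-Cytb was called lower, where 6.99% of all genes were, and 3 of the 5 values are uncertain because of nuclear copies described below. In 37 of the 43 nuclear members and in 0 of the 5 mitochondrial members, every Sox2 cKO library was above every Ctrl library. Over all genes tested 22.6% did so. DESeq2 called 35 members higher, where it called 12.7% of all genes higher. Copies elsewhere in the annotation of at least 98% identity over at least 50% of the transcript exist for 5 nuclear members (Atp5g2, Atp5h, Atp5l, Cox7c and Uqcrb), and others, such as Cox4i1, Atp5a1, Atp5j and Cox6c, overlap a gene on the opposite strand. Their counts are less certain, since the strand setting of the counting is not given in the sources used here.

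**Figure D1:**
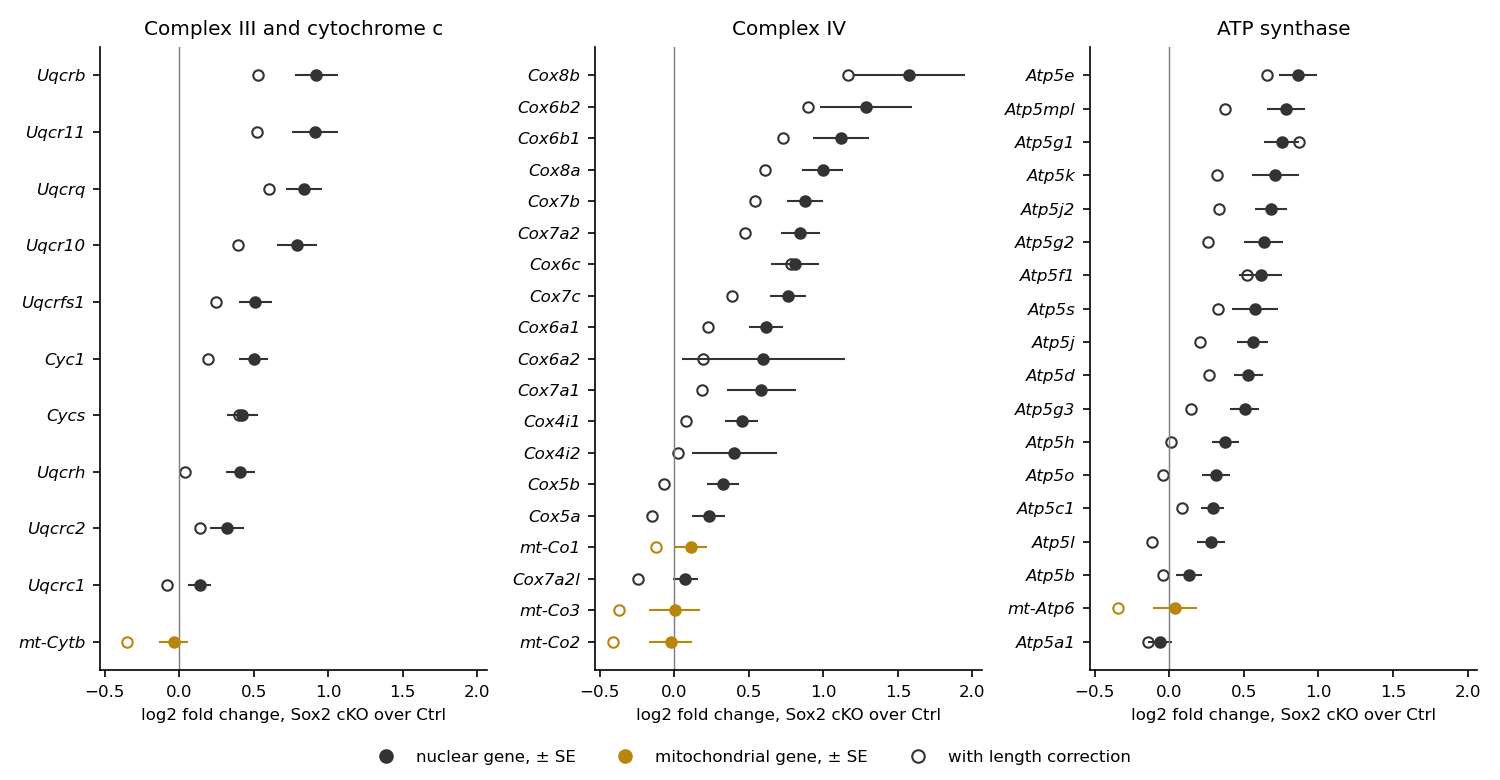
Log2 fold change of each tested gene between Sox2 cKO and Ctrl spinal cord, by complex (filled circles with standard errors, black for nuclear and gold for mitochondrial genes, n = 3 libraries a group), and the value after a correction for gene length (open circles). Nuclear genes lie mostly between 0.2 and 1.1 and mitochondrial genes near 0 without the correction, and the correction moves most circles to the left.

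In complex III all 9 nuclear genes had higher values in every Sox2 cKO library than in any Ctrl library, and 7 of them rose. The median log2 fold change was 0.51. The largest rises were those of 4 short accessory subunits. Uqcrb, which encodes a small subunit on the matrix side, was at 41.7, 27.4 and 30.8 CPM in Ctrl and at 69.9, 63.3 and 55.8 CPM in Sox2 cKO. Its lowest Sox2 cKO library was still above Ctrl library 2, the highest of the Ctrl libraries, and its log2 fold change was 0.92 ± 0.15 (SE, adjusted p = 0.012). Uqcr11 had 127, 83.9 and 89.7 CPM against 217, 172 and 177 CPM, a log2 fold change of 0.91 ± 0.15. Uqcrq had 99.9, 68.8 and 78.5 CPM against 152, 142 and 148 CPM, and Uqcr10 had 97.8, 66.4 and 68.9 CPM against 140.4, 129 and 133 CPM. Their log2 fold changes were 0.84 ± 0.12 and 0.79 ± 0.13, and in both genes the groups were separated by more than the spread of the Sox2 cKO libraries. The hinge protein Uqcrh, which helps cytochrome c1 meet cytochrome c, rose less, by 0.41 ± 0.10.

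The nuclear subunits of complex III that carry its electrons had log2 fold changes below those of these 4 short subunits. Their values were above that of Uqcrh. Uqcrfs1, the Rieske iron-sulfur protein, had 117, 89.8 and 89.2 CPM in Ctrl and 141, 144 and 137 CPM in Sox2 cKO, and rose by 0.51 ± 0.11 (SE, adjusted p = 0.015). Cyc1, cytochrome c1, had 139, 116 and 110.0 CPM against 178, 164 and 174 CPM and rose by 0.50 ± 0.10 (adjusted p = 0.013). In both genes Ctrl library 2 was nearest to the Sox2 cKO libraries. The 2 large core proteins, which derive from a processing peptidase and face the matrix, had the lowest values among the nuclear genes of the complex. Uqcrc2 was at 186, 146 and 139 CPM in Ctrl and at 196, 203 and 189 CPM in Sox2 cKO, with a log2 fold change of 0.32 ± 0.11 (adjusted p = 0.058). Uqcrc1 was at 231, 219 and 218 CPM against 244, 243 and 247 CPM, with a log2 fold change of 0.14 ± 0.07 (adjusted p = 0.2). The groups did not overlap in either gene, but neither passed the test.

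Complex IV had the highest median among the nuclear parts, 0.69 over 16 tested genes, of which 11 rose. All 3 of its catalytic subunits are mitochondrial, so its nuclear genes are accessory subunits, their tissue forms and 1 supercomplex factor. Of the 10 accessory subunits, 9 rose. Cox6b1, the subunit at the outer face of the complex where it forms a dimer, was at 187, 106 and 107 CPM in Ctrl and at 296, 302 and 270.0 CPM in Sox2 cKO. All Sox2 cKO libraries were well above Ctrl, with a log2 fold change of 1.12 ± 0.19 (SE, 2.17-fold, adjusted p = 0.012). Cox8a, a single-helix membrane subunit, had 205, 138 and 143 CPM against 334, 331 and 303 CPM, a log2 fold change of 0.99 ± 0.14 (adjusted p = 0.011). In both genes Ctrl library 2 lay between the other Ctrl libraries and the Sox2 cKO libraries. Cox7b, Cox7a2, Cox6c, Cox7c and Cox6a1, all small membrane subunits, rose by 0.88, 0.85, 0.81, 0.76 and 0.62 on the log2 scale.

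The larger accessory subunits that cover the catalytic core changed less. Cox4i1, the site of regulation by adenine nucleotides, had 377, 302 and 283 CPM in Ctrl and 466, 417 and 435 CPM in Sox2 cKO, and rose by 0.45 ± 0.11 (SE, adjusted p = 0.021). Cox5b, which binds zinc, had 244, 195 and 255 CPM against 294, 279.7 and 297 CPM and rose by 0.33 ± 0.11 (adjusted p = 0.046). Its highest Ctrl library was library 6 and not library 2. Cox5a, a matrix-side partner of subunit 4, had 51.9, 44.7 and 56.9 CPM against 54.2, 57.8 and 67.9 CPM. Its groups overlapped, and its log2 fold change of 0.23 ± 0.11 did not pass the test (adjusted p = 0.15). Cox7a2l, the supercomplex factor, was at 149.5, 149 and 168 CPM in Ctrl and at 167, 154 and 169.7 CPM in Sox2 cKO. Its log2 fold change was 0.08 ± 0.09 (adjusted p = 0.54). Its range in Sox2 cKO lay almost wholly within that in Ctrl.

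Tissue forms of complex IV subunits were expressed at low levels, summed over 6 genes to between 8.86 and 22.8 CPM per library. Cox8b, the muscle form of subunit 8, had 1.44, 0.831 and 0.676 CPM in Ctrl and 2.37, 2.01 and 4.42 CPM in Sox2 cKO. Its log2 fold change of 1.57 ± 0.38 (SE, adjusted p = 0.018) was the largest of all members, with Sox2 cKO library 5 the highest, and fell to 1.15 without that library (adjusted p = 0.051). Cox6b2, the testis form of subunit 6B, had 1.57, 1.46 and 0.628 CPM against 2.77, 3.55 and 2.68 CPM and rose by 1.29 ± 0.31 (adjusted p = 0.019). The muscle forms Cox7a1 and Cox6a2 and the second form Cox4i2 did not pass the test. Cox7a1 had 8.84, 4.24 and 8.50 CPM against 11.6, 9.89 and 10.8 CPM, and Cox6a2 had 0.673, 1.25 and 1.74 CPM against 1.80, 0.546 and 3.21 CPM. Cox4i2 had 1.30, 0.915 and 1.83 CPM against 1.93, 1.77 and 1.62 CPM. Groups overlapped in the last 2 but not in Cox7a1. Cox7b2 was at most 0.772 CPM and was not tested.

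Markers of skeletal muscle were at low levels too, and highest in the same library as Cox8b and Cox6a2. Their sum over 7 genes was 13.7, 7.19 and 5.36 CPM in Ctrl and 33.4, 4.61 and 73.9 CPM in Sox2 cKO, with none of the 7 genes at 0 in every library, and Mylpf was the 1 gene of the 6 tested that passed the test. The part of muscle tissue in the muscle forms was not tested. As a share of the summed FPKM of the muscle and the common form, Cox7a1 made up 11.7%, 8.68% and 14.3% in Ctrl and 10.4%, 9.08% and 10.4% in Sox2 cKO. Cox8b made up 1.04%, 0.899% and 0.705% in Ctrl and 1.06%, 0.906% and 2.15% in Sox2 cKO. Both shares overlapped between the groups, and Sox2 cKO library 5 had the highest share of Cox8b.

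In ATP synthase 14 of the 17 nuclear genes rose (median 0.56 on the log2 scale), and the 2 subunits that make ATP were among the 3 that did not. Atp5a1, the alpha subunit of F1, was at 942, 955 and 958 CPM in Ctrl and at 888, 894 and 951 CPM in Sox2 cKO. Its log2 fold change of -0.06 ± 0.08 (SE, adjusted p = 0.58) was the only one below 0 among the nuclear members. Atp5b, the beta subunit that carries the catalytic sites, was at 1424, 1277 and 1251 CPM in Ctrl and at 1429.6, 1421 and 1487 CPM in Sox2 cKO, a log2 fold change of 0.13 ± 0.09 (adjusted p = 0.27). The groups overlapped in both genes, in Atp5b because of Ctrl library 2. Atp5l, the g subunit, was the third, at 0.28 ± 0.09 (adjusted p = 0.053).

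All 3 genes of the central stalk of F1 rose. Atp5e, the epsilon subunit at its foot, had 122, 86.1 and 89.5 CPM in Ctrl and 191, 172 and 178 CPM in Sox2 cKO, and its log2 fold change of 0.86 ± 0.13 (SE, adjusted p = 0.012) was the largest in the complex. The delta subunit Atp5d rose by 0.53 ± 0.10 and the gamma subunit Atp5c1, the shaft of the rotor, by 0.29 ± 0.08. All 3 stalk genes were separated between the groups, although the alpha and beta genes around the same stalk were not. With the length correction described below, 2 of the 3 stalk genes were called higher, where 6.08% of all genes were. With the lengths of principal transcripts 1 was, where 5.45% of all genes were.

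The c ring, the proton-driven rotor in the membrane, is made from 3 nuclear genes whose mature proteins are the same. All 3 rose. Atp5g1 had 155, 117 and 112 CPM in Ctrl and 218, 217 and 212 CPM in Sox2 cKO, with a log2 fold change of 0.75 ± 0.12 (SE, adjusted p = 0.012). Atp5g2 had 56.8, 39.9 and 39.7 CPM against 72.2, 71.9 and 67.3 CPM, and Atp5g3 had 223, 177 and 181 CPM against 278, 271 and 276 CPM. Their log2 fold changes were 0.63 ± 0.13 and 0.51 ± 0.10. The share of Atp5g1 in the summed CPM of the 3 genes ranged from 33.6% to 35.6% in Ctrl and from 38.1% to 38.7% in Sox2 cKO, and that of Atp5g3 was 51.3%, 53.1% and 54.5% against 48.9%, 48.5% and 49.7%. The groups did not overlap in either share.

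All 4 genes of the peripheral stalk, which holds F1 still while the rotor turns, rose. They were Atp5f1, Atp5j, Atp5h and Atp5o, at 0.61, 0.56, 0.37 and 0.31 on the log2 scale. With the length correction 1 of the 4 was called higher, where 6.08% of all genes were. Among the small membrane subunits, which shape the dimer of the enzyme, Atp5mpl had 139, 93.7 and 108 CPM in Ctrl and 199.9, 187 and 199.6 CPM in Sox2 cKO, a log2 fold change of 0.78 ± 0.13 (SE, adjusted p = 0.012). Atp5k, the e subunit, had 103, 63.4 and 75.4 CPM against 149.5, 121 and 124 CPM, a log2 fold change of 0.71 ± 0.16 (adjusted p = 0.016). Neither gene had a Ctrl library within the range of Sox2 cKO. Atp5j2, the f subunit, rose by 0.68, and the factor B gene Atp5s by 0.57. Usmg5, Atpif1 and Ndufa4 encode a small ATP synthase subunit, the inhibitor of the enzyme and a subunit assigned to complex IV. Their symbols keep them out of the rule, and they were named after their values were seen. They rose by 0.86, 1.14 and 0.77.

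The gene for cytochrome c, the carrier between complexes III and IV, rose as well. Cycs was at 138, 106 and 111 CPM in Ctrl and at 157, 155 and 164 CPM in Sox2 cKO. Ctrl library 2 was again the nearest to the Sox2 cKO range, and the log2 fold change was 0.43 ± 0.10 (SE, adjusted p = 0.02).

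**Figure D2:**
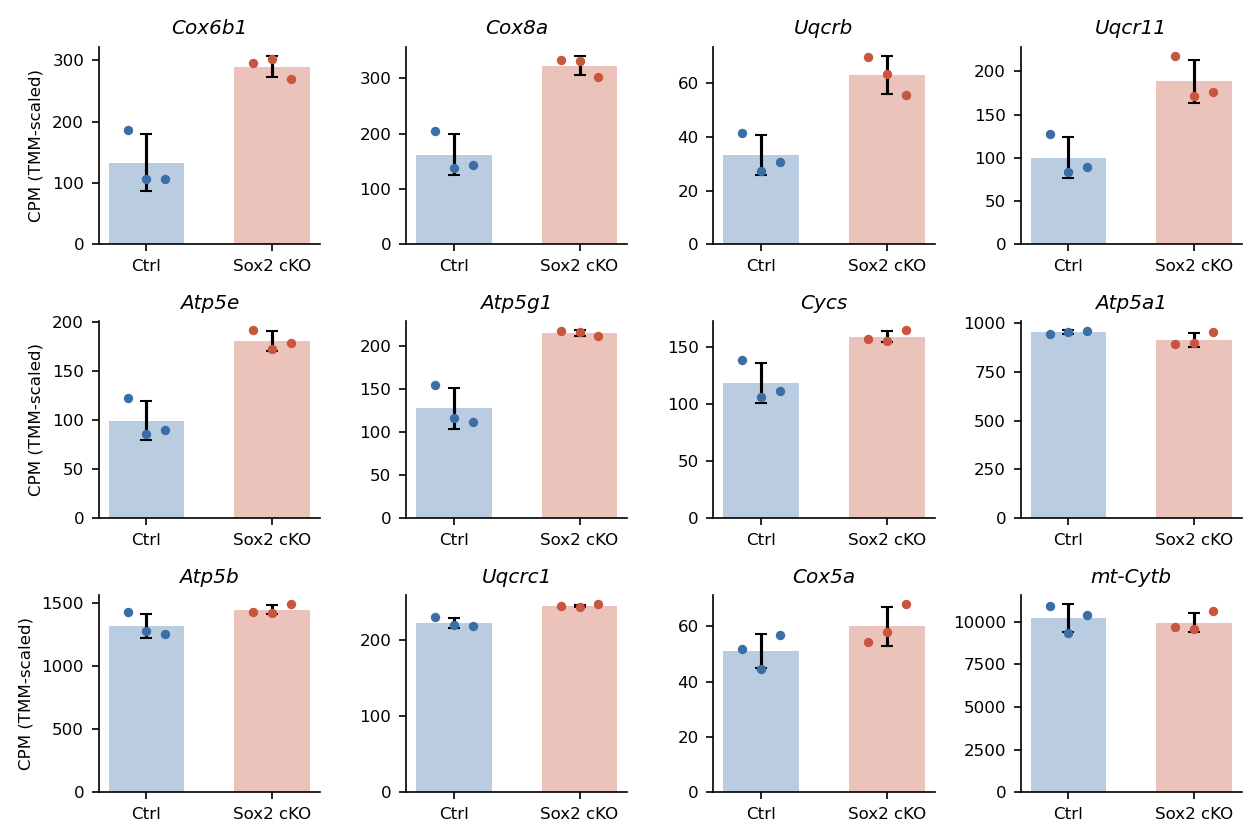
CPM of 12 genes in Ctrl (blue) and Sox2 cKO (red) spinal cord, with each of the 3 libraries of a group as a point, the mean as a bar and the SD as an error bar. Cox6b1, Cox8a, Uqcrb, Uqcr11, Atp5e, Atp5g1 and Cycs are separated between the groups, Uqcrc1 only narrowly, and Atp5a1, Atp5b, Cox5a and mt-Cytb overlap.

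By role, 14 of the 15 accessory subunits of complexes III and IV rose, and their median was 0.81 on the log2 scale. Of the 6 nuclear catalytic and core subunits (Uqcrfs1, Cyc1, Uqcrc1, Uqcrc2, Atp5a1 and Atp5b), 2 rose and the median was 0.23. Summed over genes, the accessory subunits were at 2676, 1932 and 2074 CPM in Ctrl and at 3772, 3573 and 3534 CPM in Sox2 cKO. The catalytic and core subunits were at 3039, 2802 and 2765 CPM against 3077, 3069 and 3186 CPM, so Ctrl library 2 almost reached the lowest Sox2 cKO library. On the scale of FPKM, which divides by gene length, the levels of the nuclear genes other than tissue forms ranged from a mean of 8.46 for Atp5s to 665 for Atp5b in Ctrl. Within ATP synthase Atp5b was followed by Atp5a1 at 344 FPKM, and the short genes Atp5mpl, Atp5h and Atp5l came next, at 302, 254 and 228 FPKM. The lower values of Atp5e (56.7 FPKM) and Atp5g1 (26.2 FPKM) were divided by long deposited lengths, 1697 and 4715 bases.

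Mitochondrially encoded members showed no difference between the groups that passed the test. The cytochrome b gene mt-Cytb, the catalytic centre of complex III, was at 10913, 9317 and 10374 CPM in Ctrl and at 9677, 9568 and 10609 CPM in Sox2 cKO, a log2 fold change of -0.04 ± 0.10 (SE, adjusted p = 0.81, edgeR). The gene for the largest catalytic subunit of complex IV, mt-Co1, was at 21419.7, 16660.1 and 17939 CPM against 19687, 20306 and 20459 CPM, a log2 fold change of 0.11 ± 0.11 (adjusted p = 0.48). In both genes the groups overlapped and Ctrl library 2 was the highest of the 6. The other 3 were at far lower levels. The copper-binding subunit gene mt-Co2 had 28.8, 27.0 and 35.2 CPM in Ctrl and 27.9, 25.3 and 36.2 CPM in Sox2 cKO, and mt-Co3 had 25.8, 21.6 and 32.0 CPM against 21.8, 24.4 and 33.2 CPM. The proton channel gene of ATP synthase, mt-Atp6, had 23.3, 17.4 and 19.9 CPM against 18.8, 18.3 and 25.1 CPM. Their log2 fold changes were -0.02 ± 0.14, 0.00 ± 0.17 and 0.04 ± 0.15, and the groups overlapped in each.

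Per length, mt-Co1 had 287 times the mean FPKM of mt-Co2 and 374 times that of mt-Co3, although the 3 subunits are present once each in the enzyme, and mt-Cytb had 293 times that of mt-Atp6. The levels followed the presence of a copy in the nuclear genome. A block of unprocessed pseudogenes on the minus strand of chromosome 1 (mm10) holds Gm28661, Gm10925 and Gm28437, which are 100% identical to mt-Co2, mt-Atp6 and mt-Co3 over 681, 678 and 783 bases. A read from such a stretch aligns equally well to both places. Among the 13 mitochondrial protein genes, the 5 with a nuclear copy of at least 99% identity over at least 95% of their length had a mean FPKM between 8.11 and 212, and the 7 others apart from mt-Atp8 had one between 3329 and 12589. The values of mt-Co2, mt-Co3 and mt-Atp6 are therefore uncertain, and the part of reads with more than 1 place in the genome was not tested. Gm28661, Gm10925 and Gm28437 themselves were given 5082, 6216 and 3706 reads. The best nuclear copy of mt-Co1, Gm13340 on chromosome 2, has 37 mismatches over 1545 bases.

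The following 80 bases show the difference between a gene whose copy can be told apart and one whose copy cannot. The first 2 lines are mt-Co1 (mm10 chrM:5341-5420, plus strand) and its copy Gm13340 (chr2:22589555-22589634, minus strand), with the bases that differ in capitals. The third line is mt-Co3 (chrM:8958-9037, plus strand), which has no differing base in its copy Gm28437 (chr1:24613541-24613620, minus strand). Sequences were read from the GENCODE M21 transcripts.
mt-Co1: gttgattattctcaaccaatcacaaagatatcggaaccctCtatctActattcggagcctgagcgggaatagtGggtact
Gm13340: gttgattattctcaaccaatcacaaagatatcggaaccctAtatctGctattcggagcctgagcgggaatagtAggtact
mt-Co3: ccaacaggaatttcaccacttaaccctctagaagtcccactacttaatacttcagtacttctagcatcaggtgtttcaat

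**Figure D3:**
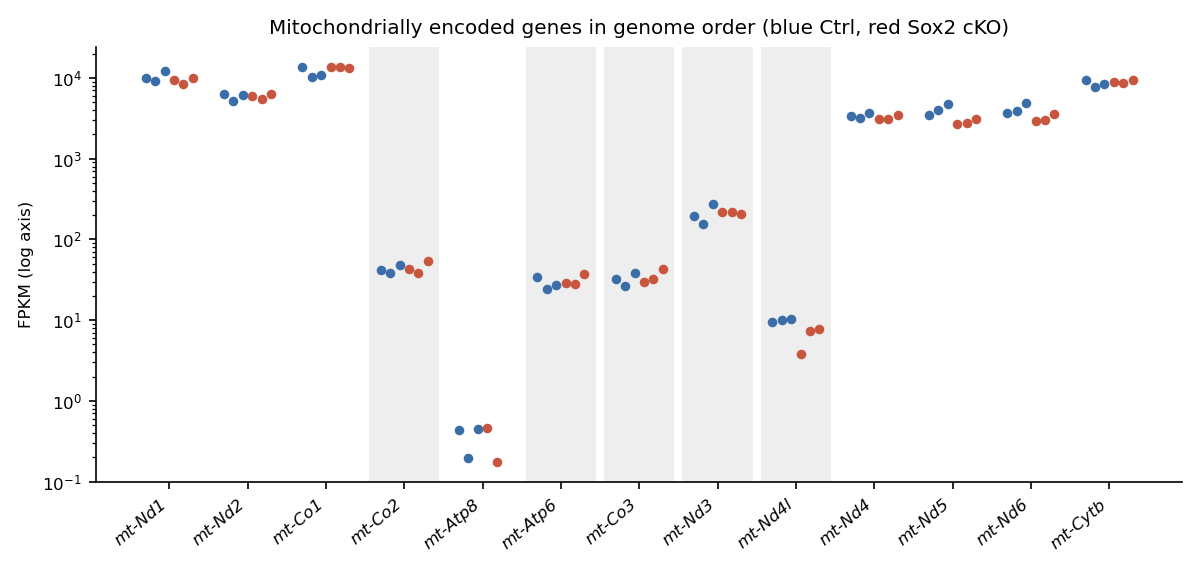
Deposited FPKM (log axis) of the 13 mitochondrially encoded protein genes in each library, in the order of the genome, with Ctrl in blue and Sox2 cKO in red and shading for genes with a nuclear copy of at least 99% identity over at least 95% of their length. Shaded genes lie between 8.11 and 212 FPKM on average and the others, apart from mt-Atp8, between 3329 and 12589 FPKM, while the groups overlap in all 5 members. The 1 library with mt-Atp8 at 0 has no point on the log axis.

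The balance of the genomes was therefore compared with mt-Co1 and mt-Cytb alone. The summed FPKM of this pair was 2.99, 3.10 and 3.21 times that of the 44 nuclear members in Ctrl, and 2.08, 2.22 and 2.29 times in Sox2 cKO. This ratio is taken within a library and does not depend on how libraries are scaled to each other. The groups did not overlap, and Ctrl library 2 lay with the other Ctrl libraries. All 13 mitochondrial genes took 6.15%, 5.29% and 6.11% of the counts in Ctrl and 5.72%, 5.57% and 5.99% in Sox2 cKO, while the nuclear members summed to 8279, 6738 and 6995 CPM against 10149, 9752 and 9918 CPM.

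As a group, the nuclear members were below their mean in every Ctrl library and above it in every Sox2 cKO library, although single genes such as Atp5a1, Cox5a and Cox7a2l overlapped. The median deviation of their log2 CPM from the mean of the 6 libraries was -0.06, -0.41 and -0.40 in Ctrl and 0.33, 0.24 and 0.28 in Sox2 cKO. Accessory subunits of complexes III and IV spread more widely, at -0.09, -0.61 and -0.51 in Ctrl and 0.47, 0.37 and 0.37 in Sox2 cKO. In both, Ctrl library 2 lay between the other Ctrl libraries and Sox2 cKO. Mitochondrial members did not follow, at 0.12, -0.21 and 0.04 in Ctrl and -0.09, -0.10 and 0.28 in Sox2 cKO. This median covers 5 genes, among them mt-Co2, mt-Co3 and mt-Atp6, whose values are uncertain because of their nuclear copies. The 1155 other tested genes of 1000 bases or less moved in the same direction as the nuclear members, at -0.06, -0.23 and -0.18 in Ctrl and 0.23, 0.13 and 0.14 in Sox2 cKO, and those over 4000 bases moved the opposite way.

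**Figure D4:**
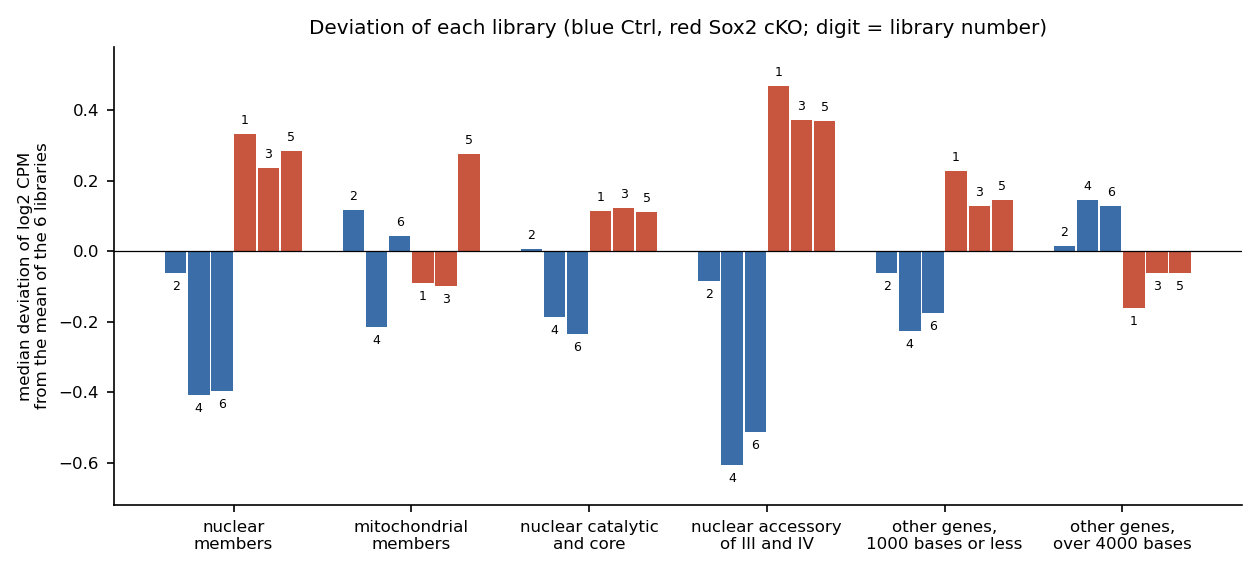
Median deviation of log2 CPM from the mean of the 6 libraries, for gene groups of the respiratory complexes and for other genes by length, with 1 bar per library (blue Ctrl, red Sox2 cKO, digits are library numbers). Nuclear accessory subunits range from -0.61 to 0.47 and other short genes from -0.23 to 0.23, in the same order of the groups, while mitochondrial members show no separation. The mitochondrial median includes mt-Co2, mt-Co3 and mt-Atp6, whose values are uncertain.

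Gene length moved with these results and was therefore examined. Across all genes tested, short genes were higher in Sox2 cKO, with a median log2 fold change of 0.30 in the shortest quintile (up to 1708 bases) and -0.25 in the longest (from 4872 bases). The nuclear members are short, with a median of 857 bases, and 35 of the 43 tested belong to the shortest quintile. In that quintile their median was 0.60 and 28 of the 35 rose, where 30.4% of all genes of the quintile rose. Over the 43 nuclear members, which share their libraries, gene length and log2 fold change had a Spearman's rho of -0.39, given as a description. With the length of the principal transcript it was -0.53. Over all genes tested it was -0.48 with the deposited length. The mitochondrial members, of 681 to 1545 bases, also lie in the shortest quintile and stood below its median.

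**Figure D5:**
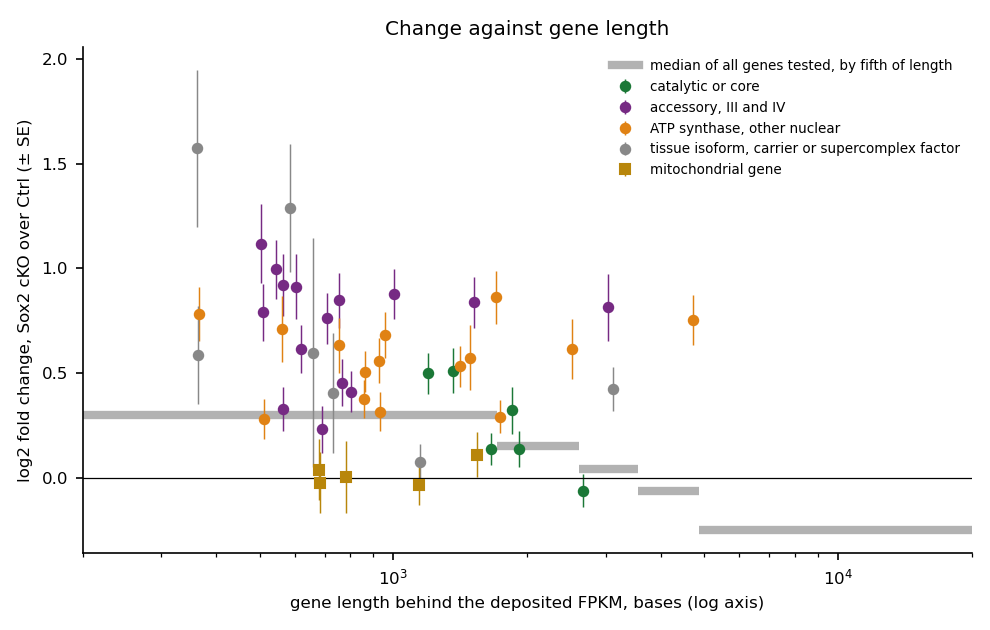
Log2 fold change between Sox2 cKO and Ctrl (with standard error) against gene length on a log axis, for the tested genes by role, and the median of all genes tested in each quintile of length (grey bars, from 0.30 to -0.25). Most accessory subunits lie above the grey bar at their length, the mitochondrial genes (squares) lie below it, and catalytic and core subunits lie on both sides. The axis stops short of the longest genes.

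After each library was corrected for its own trend with length, 17 members remained higher, all nuclear and all of them among the 33, where 6.08% of all genes were called higher. The median of the nuclear members was then 0.26, beside 0.00 for all genes tested, with 35 of 43 values above 0. The median of the accessory subunits of complexes III and IV went from 0.81 to 0.48, and their calls from 14 to 10 of 15, among them Cox6b1 (0.73, adjusted p = 0.024), Cox8a (0.61), Uqcrq (0.60) and Uqcrb (0.53). Atp5g1 (0.87), Atp5e (0.66) and Cycs (0.40) were also called. With the deposited lengths none of the 6 catalytic and core subunits was called, with 4 of them lying between -0.14 and 0.14. Cox4i1 (0.08) and Atp5h (0.01) moved close to 0, and Cox5b (-0.06) and Atp5o (-0.04) below it. The mitochondrial members moved to between -0.41 and -0.12, and mt-Cytb was called lower (-0.35, adjusted p = 0.03), where 6.99% of all genes were called lower. The deposited lengths are long for some members, 3038 bases for Cox6c and 1697 for Atp5e against 503 and 421 in the principal transcript. For others, such as Cyc1 (1194 against 1520 bases), they are shorter than the principal transcript. With principal transcripts in the correction, 16 members were called higher, beside 5.45% of all genes. Cox6c (0.42, adjusted p = 0.051) and Atp5d (0.18, adjusted p = 0.093) were no longer among them, while the core subunit Cyc1 (0.26, adjusted p = 0.043) was. Atp5g1 (4715 bases) and Uqcrq (1521 bases) had the same length in both corrections.

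The calls depended on single libraries, as given above for Ctrl library 4 (lowest adjusted p of a member = 0.059, edgeR) and Sox2 cKO library 1 (0.066). In each of these fits 42 of the 44 nuclear members tested had a positive log2 fold change, beside 42 of 43 with all libraries. Without Ctrl library 2, the library nearest to Sox2 cKO, edgeR called 36 members higher, beside 18.3% of all genes, and the median of the nuclear members was 0.70 in place of 0.58.

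Promoters are shown for 6 members that rose and 3 that did not pass the test, with and without matches, to set their sequences side by side. RefSeq promoters (GRCm38.p6, 250 bases before to 50 after the start) were used for 34 of the 44 nuclear members. Atp5a1, which did not pass the test, was among the members left out of this search. Sites of nuclear respiratory factor 1 (NRF1) and of ETS factors such as GABP, transcription factors known for respiratory genes, and of YY1 were searched as GCGCANGCG, CCGGAAG and AAGATGGCG on both strands. NRF1 letters were found in 11 of the 34 (32.4%, against 7.03% of 27025 genes with a promoter), ETS letters in 10 (29.4% against 9.93%) and YY1 letters in 2 (5.88% against 1.64%). The SOX core ACAAAG was found in 8 of the 34 and in 5680 of the 27025. Among the members that rose, 9 of 27 had NRF1 letters and 9 of 27 ETS letters. Among those tested that did not pass, 2 of 6 and 1 of 6 had them. Matches are descriptions of letters and not evidence of binding. Each line below runs from 150 bases before the start to 50 after it, with NRF1, ETS and YY1 matches in capitals. The neighbouring NRF1 matches of Uqcrc1 overlap, because the motif nearly reads the same on both strands.
Cox6b1 (chr7:30626065-30626264, minus strand): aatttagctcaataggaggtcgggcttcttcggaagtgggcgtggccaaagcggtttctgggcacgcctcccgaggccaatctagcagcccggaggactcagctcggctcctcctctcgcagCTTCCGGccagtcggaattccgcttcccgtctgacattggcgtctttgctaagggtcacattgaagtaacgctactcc
Cox8a (chr19:7217567-7217766, minus strand): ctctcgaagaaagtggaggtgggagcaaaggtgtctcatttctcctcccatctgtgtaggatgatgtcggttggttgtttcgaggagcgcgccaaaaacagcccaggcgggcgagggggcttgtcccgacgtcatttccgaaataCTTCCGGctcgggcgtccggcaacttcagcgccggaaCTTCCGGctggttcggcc
Uqcr11 (chr10:80406772-80406971, minus strand): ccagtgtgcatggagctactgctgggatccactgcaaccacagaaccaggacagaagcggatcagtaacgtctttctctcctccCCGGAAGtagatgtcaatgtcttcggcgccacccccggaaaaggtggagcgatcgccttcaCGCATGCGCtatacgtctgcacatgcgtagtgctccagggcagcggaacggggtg
Atp5e (chr2:174464052-174464251, minus strand): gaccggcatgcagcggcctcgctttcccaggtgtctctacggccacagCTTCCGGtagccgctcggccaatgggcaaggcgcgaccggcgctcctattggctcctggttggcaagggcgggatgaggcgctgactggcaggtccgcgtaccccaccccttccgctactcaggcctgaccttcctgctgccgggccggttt
Atp5g1 (chr11:96075582-96075781, minus strand): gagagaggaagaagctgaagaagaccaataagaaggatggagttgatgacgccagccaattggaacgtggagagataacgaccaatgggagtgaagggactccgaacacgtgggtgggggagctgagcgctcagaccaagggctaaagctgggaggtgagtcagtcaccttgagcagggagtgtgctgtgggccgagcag
Cycs (chr6:50566520-50566719, minus strand): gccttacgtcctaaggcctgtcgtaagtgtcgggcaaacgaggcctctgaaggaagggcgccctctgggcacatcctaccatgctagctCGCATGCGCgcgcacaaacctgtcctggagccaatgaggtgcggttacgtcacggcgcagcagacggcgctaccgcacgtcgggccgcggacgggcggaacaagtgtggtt
Atp5b (chr10:128083157-128083356, plus strand): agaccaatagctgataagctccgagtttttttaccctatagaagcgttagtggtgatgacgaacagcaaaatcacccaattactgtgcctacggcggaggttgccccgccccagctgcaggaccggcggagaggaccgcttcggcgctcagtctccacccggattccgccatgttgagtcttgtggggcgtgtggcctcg
Uqcrc1 (chr9:108936498-108936697, plus strand): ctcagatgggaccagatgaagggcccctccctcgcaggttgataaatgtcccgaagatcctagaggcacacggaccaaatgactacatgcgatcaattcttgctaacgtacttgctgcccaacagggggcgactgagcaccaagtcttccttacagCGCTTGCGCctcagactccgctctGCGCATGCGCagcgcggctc
Cox5a (chr9:57521082-57521281, plus strand): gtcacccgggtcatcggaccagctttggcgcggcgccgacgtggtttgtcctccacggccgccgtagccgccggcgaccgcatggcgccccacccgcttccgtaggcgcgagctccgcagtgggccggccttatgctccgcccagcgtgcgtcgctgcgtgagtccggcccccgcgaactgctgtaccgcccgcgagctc

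ETS letters stand close to the start in Cox6b1 and Cox8a, and NRF1 letters in Uqcr11, Cycs and Uqcrc1, the last of which did not pass the test. None of the 3 motifs was found in the 200 bases shown of Atp5g1, which rose, or of Atp5b and Cox5a, which did not pass.

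The other complexes of the chain were examined by genome as well. In complex I, 28 of 38 nuclear subunit genes rose and 0 fell (median 0.34 on the log2 scale), beside 12.2% and 12.4% of all genes. Of its 7 mitochondrial genes 0 rose and 2 fell, mt-Nd5 by 0.62 and mt-Nd6 by 0.49 on the log2 scale, and all 7 were below 0 (median -0.28). With the length correction 6 of the 7 were called lower (median -0.64), where 6.99% of all genes were. The values of mt-Nd3 and mt-Nd4l are uncertain, since both have nuclear copies of at least 99% identity over at least 95% of their length. A nuclear copy of mt-Nd4 is 100% identical over 63.6% of that gene. Of the 4 complex II genes, all nuclear, only Sdhd rose (0.46) and the catalytic Sdha was at -0.14. None of the 4 was called by edgeR once length was corrected for. Of the protein genes of the mitochondrial ribosome, which makes the mitochondrial subunits, 40 of 76 tested rose (median 0.35). Of those of the cytosolic ribosome 25 of 77 rose (median 0.19). With the length correction 11, 14 and 1 genes of complex I (nuclear) and of the mitochondrial and cytosolic ribosome were called higher and 1, 1 and 9 lower. Among all genes 6.08% were called higher and 6.99% lower.

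Assembly factors moved in part, where 12.2% of all genes tested rose. Of the factors for complex IV, 9 of 20 tested rose, among them Pet100 (0.92) and Cox14 (0.89), while the copper chaperones Cox17 (-0.08) and Sco1 (-0.05) did not pass the test, and Sco2 and Pet117 were listed at 0. Of those for complex III 2 of 6 rose, Uqcc2 and Uqcc3, and of those for ATP synthase 2 of 5, Fmc1 and Tmem242. Factors acting on mitochondrial RNA rose in 3 of 8 genes (Slirp at 1.02, Mterf1a at 0.76 and Pnpt1 at 0.46), whereas Tfam (-0.06), which packs and transcribes mitochondrial DNA, Polrmt (0.01) and Lrpprc (-0.12) did not pass the test. Of the genes for ATP and phosphate exchange 3 of 5 rose, led by the phosphate carrier Slc25a3 (0.52). With the length correction 3, 0, 1, 2 and 1 genes of these lists were called higher, where 6.08% of all genes were. In the complex IV list 1 gene was called lower, where 6.99% of all genes were.

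Of 9 regulators of mitochondrial biogenesis 0 rose, 5 did not pass the test and 4 fell, namely Ppara (-0.70), Ppargc1b (-0.64), Yy1 (-0.39) and Esrrg (-0.34). Among all genes 12.4% fell. Their co-activator partner Ppargc1a was at -0.30 (adjusted p = 0.052, edgeR), and Nrf1 and Gabpa, whose proteins bind the motifs above, were at -0.01 and 0.08. These genes are long, with a median of 4042 bases, and 1 was called lower with the length correction and 0 with principal transcripts. Leaving out Ctrl library 4, Ctrl library 6, Sox2 cKO library 1 or Sox2 cKO library 3, or using limma on FPKM, also left 0 calls, and without Sox2 cKO library 5 there was 1, while DESeq2 called 5. Of the 13 genes that mark mitochondrial mass 4 rose and 0 fell (median 0.19), with Tomm20 at -0.16 and citrate synthase (Cs) at -0.12. In the tricarboxylic acid cycle 5 of 13 rose and Ogdh fell (median 0.20), where 12.2% of all genes rose. In each of these 2 lists 1 gene was called higher and 0 lower with the length correction, beside 6.08% and 6.99% of all genes.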

How the data were processed

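RNA of 6 spinal cords (3 Ctrl, 3 Sox2 cKO, separate mice, RIN above 6.8) was sequenced by the study as poly(A), directional, single-end libraries. This RIN limit is that of the sample records, and the study's methods state a higher one. The authors aligned reads with STAR 2.5 to mm10 and counted them per gene with HTSeq 0.6.1, and deposited these raw counts. The authors also deposited FPKM, counts divided by gene length and library size, from which gene lengths were recovered. A deposited table of the authors' own comparison (fold changes, p-values) was not used for results. Its group means matched the column groups in 1999 of 1999 genes and the exchanged groups in 0.

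Counts were tested with edgeR 4.0.16 (R 4.3.3, filterByExpr, TMM, quasi-likelihood, Benjamini-Hochberg over all 16137 genes, threshold 0.05). All log2 fold changes, standard errors and adjusted p-values come from this fit unless another is named. Symbols came from GENCODE M21, which matched 34490 of 35275 identifiers. The length correction used each library's lowess trend (span 0.3) of log2 CPM with length as offsets. Copies were searched with BLAST 2.17.0. Alternatives were DESeq2 1.42.0, upper quartile scaling, other filters, limma 3.58.1 on log2(FPKM + 1) and log2(FPKM + 0.1), length and GC corrections, library sizes without mitochondrial genes, and leaving out each library. The length correction with principal transcripts, and leaving out libraries under DESeq2 or the length correction, were added after seeing the data. The fits were tested on simulated data. An exact permutation test of 3 against 3 cannot go below 0.1.

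Genes given with every library's value were the mitochondrial members, Cyc1, Cycs, the core and c-ring subunits, the tissue forms, and in each nuclear complex the 4 largest rises and the 2 lowest log2 fold changes. Members and gene lists were chosen with earlier results of these data known.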

Additional observations from a re-analysis of the deposited data

How the results depend on the processing

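The count of members called was 33 in edgeR. It was 0 with limma on log2(FPKM + 0.1), where 39 members had an unadjusted p below 0.05 and 21 genes of 14756 were called. It was 18 with the length correction (17 higher and 1 lower) and 17 with principal transcripts. Leaving out 1 library gave 0 to 36 in edgeR, 29 to 38 in DESeq2 and, with the length correction, 0 to 29 (0 without Ctrl library 4, Sox2 cKO library 1 or Sox2 cKO library 3, 2 without Ctrl library 6, 12 without Sox2 cKO library 5 and 29 without Ctrl library 2). The other settings gave 33 to 36. Median log2 fold changes with the length correction and with principal transcripts were 0.25 and 0.26 for complex III (0.51 without), 0.31 and 0.29 for complex IV (0.69 without), 0.26 and 0.19 for ATP synthase (0.56 without) and -0.35 and -0.35 for the mitochondrial members (0.00 without). With the length correction 35 of 43 nuclear members were above 0, in place of 42. Among genes called in edgeR, Atp5o turned to -0.042 and Cox5b to -0.065, and with principal transcripts, Atp5o to -0.058, Cox5b to -0.036, Atp5c1 to -0.021 and Atp5h to -0.021. Genes not called that turned with both corrections were Atp5b, Atp5l, Uqcrc1, Cox5a, Cox7a2l, mt-Atp6, mt-Co1 and mt-Co3. The cause was not tested. Over all genes, limma on log2(FPKM + 1) called 2476 higher and 772 lower, where edgeR called 1962 and 2008, and the median of all genes was 0.11 with log2(FPKM + 0.1) and 0.02 in edgeR. No paired analysis was possible because the columns of the count table carry no replicate numbers. With 3 libraries a group and a gap between Ctrl library 2 and the other Ctrl libraries, small differences may not have been detectable.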
